A study of Arabidopsis thaliana with 4 samples.

Results

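A set of 7 nuclear genes of photosynthesis were followed in dark-grown seedlings: LHCB4.1, LHCB4.2, PSAE1 (PSAE-1 in the annotation) and PSBW, which encode proteins of the antenna and the photosystems, and RCA, PRK and SBPASE, which encode proteins of the Calvin cycle. They were taken as the probe sets that the platform annotation assigns to these symbols. That gave 1 probe set for each of the 7 genes, out of 13356 genes that the annotation pairs with a probe set of their own, and all 7 were bright enough to be tested. The arrays were Affymetrix ATH1 arrays, which carry short oligonucleotide probes for most Arabidopsis genes.

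The RNA came from 2 samples of the ein3-1 eil1-1 double mutant (ein3 eil1 below) and 2 samples of wild type Col-0. Both groups were whole Arabidopsis thaliana seedlings 4 days old, grown on MS medium at 22 °C in darkness after 3 days of cold and 4 hours of light to induce germination. EIN3 and EIL1 are transcription factors that act in the ethylene pathway, and mutant seedlings are described in the labels as richer in protochlorophyllide, the precursor of chlorophyll that builds up in the dark. The mutant carries both lesions, so the effect of either gene alone cannot be read from these samples, and whole seedlings mix cotyledons, hypocotyl and root. In such bulk samples, fewer cells of a type and less RNA per cell cannot be told apart.

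Light-harvesting proteins bind chlorophyll and pass excitation energy to the photosystems, whose core subunits are partly encoded in the plastid and partly, as here, in the nucleus. The Calvin cycle then uses ATP and NADPH from the light reactions to fix carbon dioxide through the enzyme Rubisco. In darkness seedlings hold etioplasts, which carry little chlorophyll protein, and phytochrome-interacting factors keep many nuclear photosynthesis genes low until light arrives. The comparison asks whether transcripts of the antenna and photosystems and transcripts of the Calvin cycle differ between the genotypes in the same way.

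The labels of the mutant were checked on EIN3, whose probe set read 76.7 and 221.2 in ein3 eil1, against 765.9 and 992.3 in wild type. The log2 difference was -3.12 (limma adjusted p = 0.014). Median signals of the arrays were 50.8 and 85.2 in ein3 eil1, and 49.5 and 52.3 in wild type, so values were quantile normalised and are given as log2(signal + 3) unless deposited signals are named. In each genotype the title of 1 array marks it as a biological replicate. Those arrays are replicate 2 of each genotype, called pair B here, and the others are replicate 1, called pair A. The pairs rest on the titles, and the labels do not say whether arrays of a pair were grown or processed together. Added Bacillus control transcripts averaged 6.87 in ein3 eil1 and 6.79 in wild type in pair B, and 8.58 in ein3 eil1 and 8.51 in wild type in pair A, so the control levels followed the titles. Differences are therefore also given within each pair. Of the 8 markers of seedling stage and organs, 4 had a named probe set. PORB (light-dependent protochlorophyllide oxidoreductase, abundant in etiolated seedlings), the root gene PYK10 and the lipid mobilisation gene ICL stood at the 95.1st percentile of probe sets or above on every array, and the stomatal lineage gene SPCH stood between the 26.9th and the 44.9th percentile. PYK10, ICL and SPCH differed by -0.24 to -0.01 between genotypes on average, but each had opposite signs in the pairs. In pair A the differences were -0.04 for PYK10, -0.45 for ICL and -1.25 for SPCH. In pair B they were 0.01 for PYK10, 0.41 for ICL and 0.78 for SPCH. Without a pair term 0 of the 4 markers passed the limma threshold, where 0.292% of all 14031 tested probe sets did. That count therefore does not show that stage or organ make-up was alike. PORB differed by -1.13, with -0.96 in pair A and -1.30 in pair B (limma adjusted p = 0.42, and 0.0037 with a pair term), and its part in the results below was not tested.

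All 7 probe sets were bright in darkness. Signals of the 4 antenna and photosystem genes were above at least 99.2% of the probe sets on every array, and those of the 3 Calvin cycle genes stood between the 93.0th and the 99.8th percentile. Probe sets differ in brightness for the same amount of RNA, so these ranks do not order the genes by abundance. Without a pair term, 0 of the 7 genes passed the limma threshold of 0.05 after Benjamini-Hochberg adjustment, where 0.292% of all 14031 tested probe sets did, and 1 of the 7, PRK, had an unadjusted p below 0.05, where 6.14% of all did. With the pair as an additive term, 1 of the 7 passed, again PRK, where 2.79% of all did.

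**Figure D1:**
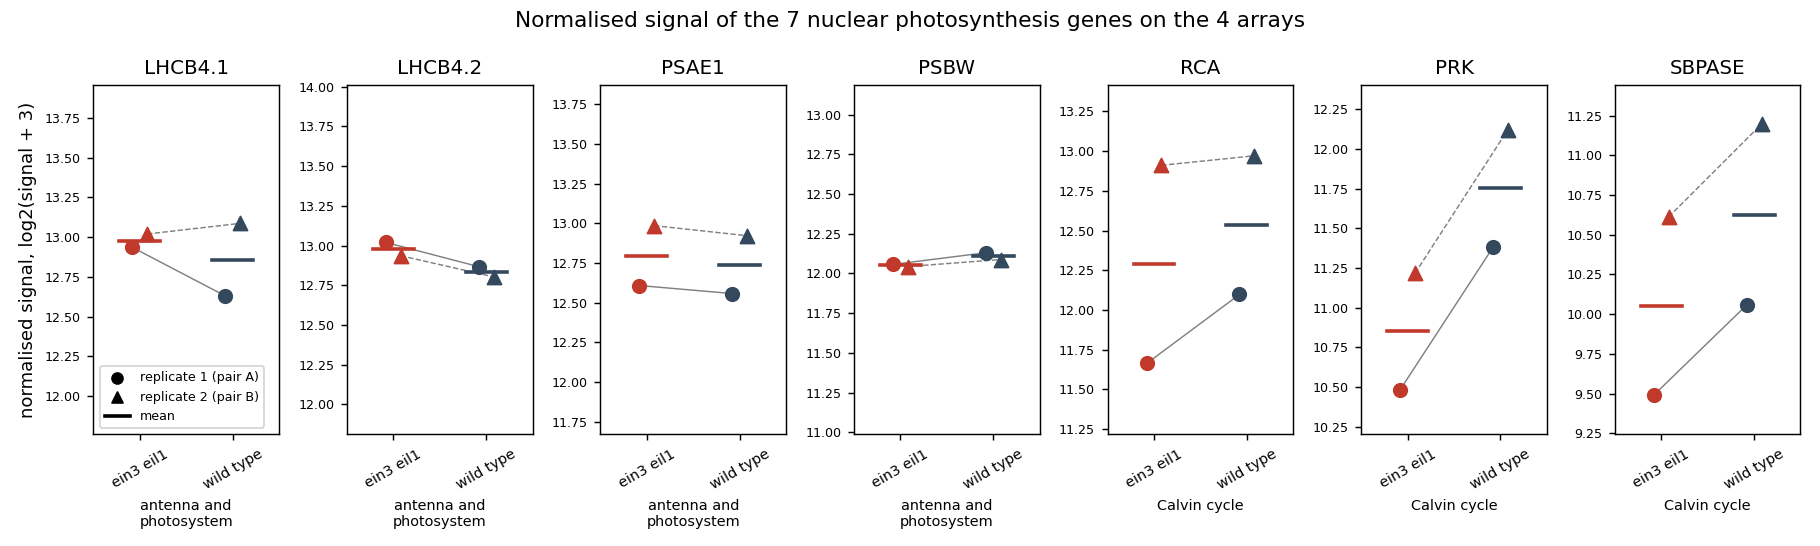
Normalised signal, log2(signal + 3), of each gene on the 4 arrays, with ein3 eil1 left of wild type, circles for replicate 1 (pair A), triangles for replicate 2 (pair B), bars for genotype means and thin lines joining the arrays of a pair. Every panel spans 2.2 log2 units with its own origin. PSBW ranges over 0.09 log2 units and SBPASE over 1.71.

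LHCB4.1 and LHCB4.2 encode closely similar forms of CP29, a minor antenna protein that links the main light-harvesting complex to the core of photosystem II. LHCB4.1 (AT5G01530) had deposited signals of 7293 and 11432 in ein3 eil1, against 5631 and 7619 in wild type. Its normalised values were 12.94 and 13.02 in ein3 eil1, and 12.63 and 13.09 in wild type. The mutant values lay between the wild-type values, so the genotypes overlapped. The log2 difference was 0.12 (95% interval -0.37 to 0.61; limma adjusted p = 0.9997), with 0.31 in pair A and -0.07 in pair B.

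LHCB4.2 (AT3G08940) had deposited signals of 7951 and 10731 in ein3 eil1, against 6713 and 6243 in wild type. After normalisation these became 13.02 and 12.94 in ein3 eil1, and 12.87 and 12.80 in wild type. Both mutant values were above both wild-type values by a small margin. The log2 difference was 0.14 (95% interval -0.28 to 0.57; limma adjusted p = 0.9997), and it had the same sign in both pairs, 0.15 in pair A and 0.13 in pair B.

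On the mutant arrays the 2 paralogs exchanged the same normalised values, because quantile normalisation gives each rank a fixed value and the genes exchanged ranks. Within an array, the log2 ratio of deposited LHCB4.1 to LHCB4.2 signal was -0.12 and 0.09 in ein3 eil1, and -0.25 and 0.29 in wild type. The ratio moved between replicates of 1 genotype by more than its mean moved between genotypes, which was -0.03. How far the probes of each paralog also read the other was not tested.

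PSAE1 (AT4G28750) encodes subunit E of photosystem I, a stromal subunit at the ferredoxin docking side. Its normalised values were 12.61 and 12.98 in ein3 eil1, and 12.56 and 12.92 in wild type. The arrays fell together by pair rather than by genotype, with the 2 arrays of pair B the higher ones. The log2 difference between genotypes was 0.06 (95% interval -0.46 to 0.58; limma adjusted p = 0.9997), with 0.05 in pair A and 0.06 in pair B.

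PSBW (AT2G30570) encodes a small nuclear-encoded subunit of photosystem II that helps hold its supercomplexes together. Its values were the steadiest of the 7, at 12.06 and 12.04 in ein3 eil1, and 12.13 and 12.09 in wild type. The 2 mutant values were below both wild-type values, by less than 0.1 log2 units on average. The difference was -0.06 (95% interval -0.53 to 0.41; limma adjusted p = 0.9997), with -0.07 in pair A and -0.04 in pair B. The sign turned to 0.37 in log2 signals as deposited, without normalisation between arrays (the deposited scaling), where the median difference over the tested probe sets was itself 0.39 higher, and to 0.02 with median centring.

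For the antenna and photosystem genes, then, the median log2 difference was 0.09, with single genes from -0.06 to 0.14, beside a median of 0.01 over all tested probe sets. In this fit the 95% intervals of the 4 genes ran no lower than -0.53 and no higher than 0.61, so differences inside that span were not resolved with 2 arrays per genotype. Leaving out wild type replicate 1 turned LHCB4.1 to -0.11 and PSAE1 to -0.12, and leaving out ein3 eil1 replicate 2 turned PSAE1 to -0.13.

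The antenna and photosystem genes above ranged over at most 0.46 log2 units from array to array. Others of these kinds, described below, ranged further, over 1.01 for PSAN, 0.96 for LHCB4.3 and 0.76 for PSBY. The 3 Calvin cycle genes ranged over 1.31 log2 units for RCA, 1.64 for PRK and 1.71 for SBPASE. Their genotype differences ran from -0.90 to -0.25 log2 units, with a median of -0.58, although RCA turned sign under the deposited scaling, and all 3 genes were lower in the mutant within both pairs, which held for 27.4% of all tested probe sets. The median was -0.20 under the deposited scaling, and without 1 array in turn it ran from -1.15 (without ein3 eil1 replicate 2 or wild type replicate 1) to -0.0087 (without ein3 eil1 replicate 1). In the fit with a pair term PRK passed the threshold, and RCA and SBPASE did not. In deposited signals of pair B the mutant had 0.919 times the wild-type signal of PRK, 1.17 times that of SBPASE and 1.497 times that of RCA, where the median ratio of all tested probe sets was 1.75. In pair A the ratios were 0.536 for PRK, 0.647 for SBPASE and 0.739 for RCA, where the median was 1.01.

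PRK (AT1G32060) encodes phosphoribulokinase, which regenerates ribulose 1,5-bisphosphate, the acceptor of carbon dioxide, at the cost of ATP. Its deposited signals were 1275 and 3442 in ein3 eil1, against 2380 and 3744 in wild type. The normalised values were 10.48 and 11.22 in ein3 eil1, and 11.38 and 12.12 in wild type. Both mutant values were below both wild-type values, and within a pair the distance was nearly the same, -0.90 in pair A and -0.90 in pair B. The mean difference of -0.90 corresponds to 0.536 times the wild-type level.

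The test of PRK turned on the pair term. Without it the SE was 0.34, the 95% interval ran from -1.69 to -0.11 and the limma adjusted p was 0.70. With the pair as a term the SE was 0.19, the interval ran from -1.32 to -0.48 and the limma adjusted p was 0.024. That fit leaves 1 residual degree of freedom per probe set, against 2 without the term, and it called 391 probe sets in place of 41. Of all tested probe sets, 2.62% had a lower difference than PRK. A fit that leaves out an array has 1 array in a genotype, so only its difference is given. Without a pair term PRK differed by -1.28 without ein3 eil1 replicate 2 and by -1.28 without wild type replicate 1. It differed by -0.53 without ein3 eil1 replicate 1 and by -0.52 without wild type replicate 2. Under the deposited scaling it was -0.51, which is -0.91 relative to the median of all tested probe sets.

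SBPASE (AT3G55800) encodes sedoheptulose-bisphosphatase, a light-activated enzyme of the regenerative phase of the cycle. It had deposited signals of 638.7 and 2307 in ein3 eil1, against 987.5 and 1971 in wild type. Its normalised values were 9.49 and 10.61 in ein3 eil1, and 10.06 and 11.20 in wild type. The genotypes overlapped, because replicate 2 of the mutant was above replicate 1 of wild type, while within each pair the mutant was the lower array, with a difference of -0.57 in pair A and -0.58 in pair B. The mean difference was -0.58 (95% interval -1.65 to 0.49; limma adjusted p = 0.9997). With the pair as a term the interval was -1.03 to -0.12 and the limma adjusted p 0.22, so SBPASE did not pass. Under the deposited scaling the difference was -0.20, which is -0.60 relative to the median of all tested probe sets. Without ein3 eil1 replicate 1 the difference was -0.0087, and without ein3 eil1 replicate 2 it was -1.15. Without wild type replicate 1 it was -1.15 too, and without wild type replicate 2 it was -0.01.

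RCA (AT2G39730) encodes Rubisco activase, the ATP-dependent chaperone that frees Rubisco from inhibitory sugar phosphates. It had deposited signals of 2880 and 10618 in ein3 eil1, against 3896 and 7095 in wild type. Its normalised values were 11.66 and 12.91 in ein3 eil1, and 12.10 and 12.97 in wild type. The genotypes overlapped, and the distance within a pair was -0.43 in pair A but -0.06 in pair B. The mean difference was -0.25 (95% interval -1.22 to 0.72; limma adjusted p = 0.9997, and 0.65 with the pair as a term). It turned to 0.07 under the deposited scaling, which is -0.33 relative to the median of all probe sets. It also turned to 0.38 without ein3 eil1 replicate 1 and to 0.17 without wild type replicate 2.

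**Figure D2:**
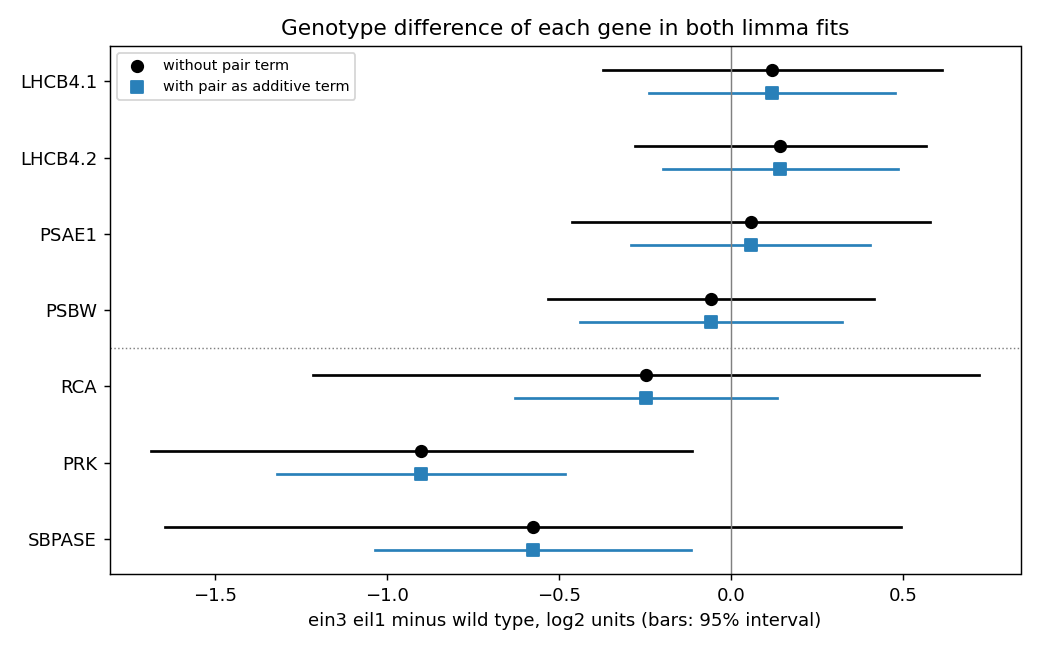
Difference ein3 eil1 minus wild type of each gene in log2 units, with 95% intervals from limma without a pair term (black circles) and with the pair as an additive term (blue squares). The intervals of the 4 antenna and photosystem genes include 0 in both fits, those of PRK exclude 0 in both, and that of SBPASE excludes 0 with the pair term alone. PSBW and RCA turn sign under the deposited scaling. The intervals are not adjusted for the number of probe sets.

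Of the 7 genes, 3 (LHCB4.2, PSBW and PRK) had genotypes that did not overlap, where 31.6% of all tested probe sets did, so that count did not set these genes apart. LHCB4.2 and PSAE1 were higher in the mutant within both pairs, as were 29.5% of all tested probe sets. An exact permutation test of 2 arrays against 2 cannot give a two-sided p below 0.333, and none is given.

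The contrast between the 2 groups was read as a gap within each array, the mean of the 4 antenna and photosystem genes minus the mean of the 3 Calvin cycle genes. Only its change from array to array has a meaning, so it was set against its mean over the 4 arrays. The gap was 0.79 and -0.15 in ein3 eil1, against 0.05 and -0.69 in wild type. It was wider in the mutant within each pair, by 0.74 in pair A and by 0.54 in pair B, and by 0.64 on average. Between replicates the gap moved further, since pair B minus pair A was -0.94 in ein3 eil1 and -0.74 in wild type (SD 0.67 and 0.52 in that order, n = 2 each), and the genotypes overlapped. In deposited signals, where a scale factor of an array cancels, the gap differed by 0.65 between genotypes, with 0.82 in pair A and 0.48 in pair B. Without 1 array in turn the difference ran from 0.16 to 1.12, and no p is given because the genes were chosen with results known.

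**Figure D3:**
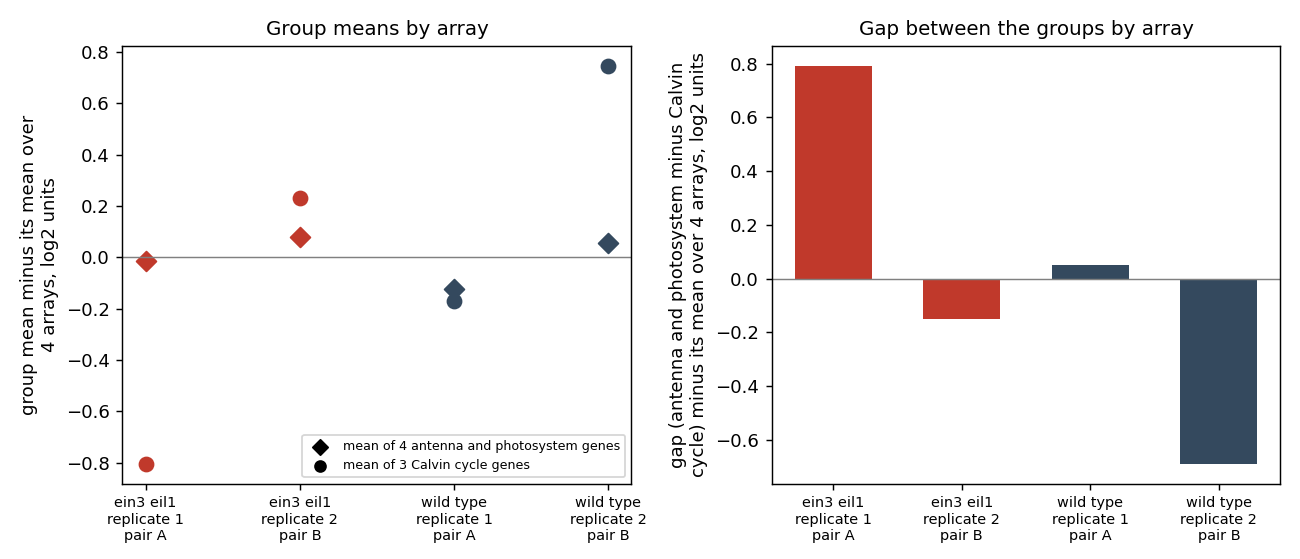
Left, mean of the 4 antenna and photosystem genes (diamonds) and of the 3 Calvin cycle genes (circles) on each array, and right, the gap between them, each minus its own mean over the 4 arrays, in log2 units, with ein3 eil1 in red and wild type in dark blue. The Calvin cycle mean runs from -0.80 to 0.75, the antenna and photosystem mean from -0.12 to 0.08. Under the deposited scaling RCA and PSBW turn sign between genotypes.

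The Calvin cycle genes also moved between the pairs, RCA and SBPASE by more than they did between genotypes. RCA was higher in pair B than in pair A by 1.25 in ein3 eil1 and by 0.87 in wild type. SBPASE was higher in pair B by 1.12 in ein3 eil1 and by 1.14 in wild type, and PRK by 0.73 in ein3 eil1 and by 0.74 in wild type. All 3 were thus higher in pair B in both genotypes, which held for 30.9% of all tested probe sets. Averaged over the genotypes, RCA and SBPASE were at least 2-fold higher in pair B, which held for 2.89% of all tested probe sets.

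The antenna and photosystem genes moved less between the pairs. PSAE1 was higher in pair B by 0.38 in ein3 eil1 and by 0.36 in wild type, and LHCB4.1 by 0.08 in ein3 eil1 and by 0.46 in wild type. LHCB4.2 and PSBW differed between the pairs by -0.07 and -0.03 on average. The median of all tested probe sets was -0.02. The pairs also differ in the level of the added control transcripts, and its part in the shift of the Calvin cycle genes was not tested.

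**Figure D4:**
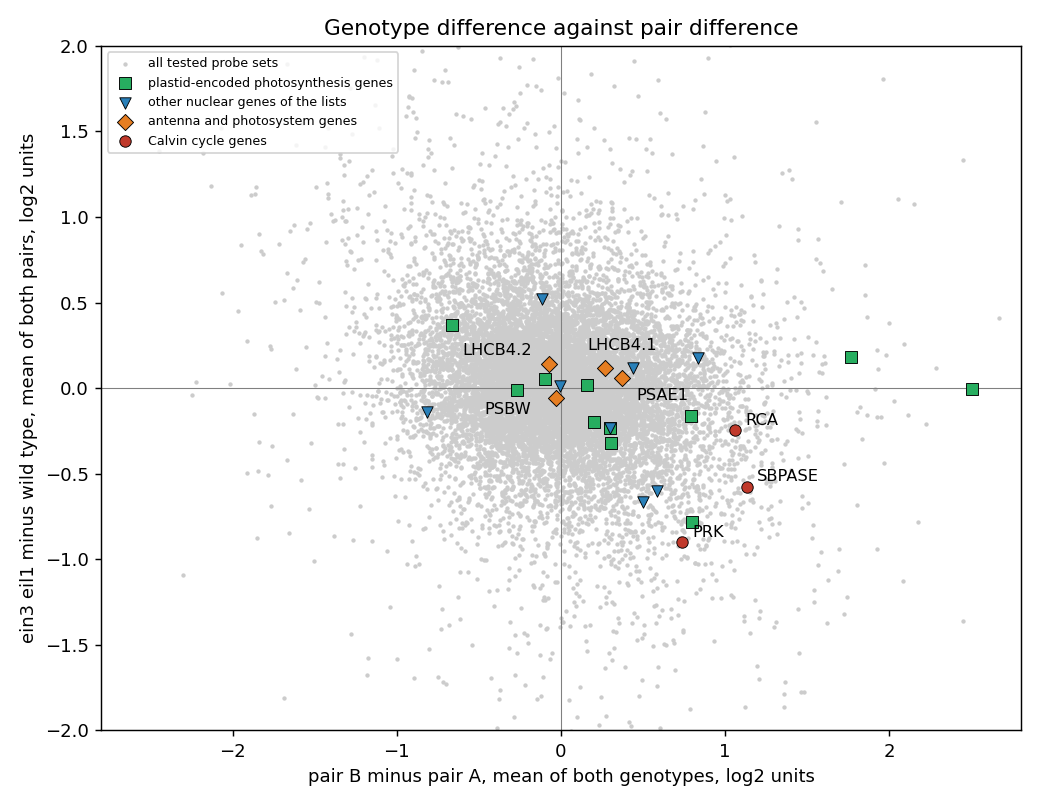
For each tested probe set (grey), the difference pair B minus pair A (mean of both genotypes, horizontal) and the difference ein3 eil1 minus wild type (mean of both pairs, vertical), in log2 units, with the 7 genes, other nuclear genes of the lists and plastid-encoded genes marked. RCA, PRK and SBPASE lie at 0.74 to 1.13 on the horizontal axis and at -0.90 to -0.25 on the vertical axis, and 101 probe sets lie outside the axes. Under the deposited scaling RCA and PSBW turn sign on the vertical axis.

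Profiles over the 4 arrays, each centred on its own mean, were compared by their root-mean-square gap. Between genes of the antenna and photosystem group the gap was 0.10 to 0.23 log2 units over 6 gene pairs, and within the Calvin cycle group 0.19 to 0.38 over 3 gene pairs. Across the groups it was 0.39 to 0.70 over 12 gene pairs. The profiles were centred but not scaled, so flat profiles lie near each other and far from variable ones. Among the Calvin cycle genes RCA and SBPASE were nearest each other (0.19), and PRK was nearer SBPASE (0.26) than RCA (0.38). The log2 ratio of RCA to PRK in deposited signals was 1.17 and 1.62 in ein3 eil1, and 0.71 and 0.92 in wild type, so the ratio was higher on both mutant arrays, by 0.58 on average. That of PRK to SBPASE was 0.99 and 0.58 in ein3 eil1, and 1.27 and 0.92 in wild type, and that of PSAE1 to PSBW was 0.56 and 0.87 in ein3 eil1, and 0.48 and 0.93 in wild type. Of the 4 ratios computed, RCA to PRK was the 1 whose genotypes did not overlap, and none was tested. Among single tested probe sets 31.6% did not overlap, so 1 of 4 does not set this ratio apart.

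Among 7536 other tested probe sets with 1 named gene, the profiles nearest to PRK were those of AT2G01870 (gap 0.07) and AT3G08740 (0.08). Those nearest to SBPASE were AT2G03390 (0.03) and AT2G24020 (0.07), and those nearest to RCA were AT3G52170 (0.04) and AT5G48790 (0.05). Only 13, 10 and 21 probe sets came within 0.1 log2 units of PRK, SBPASE and RCA in that order. For the flatter antenna and photosystem genes 223 to 448 did, with BGLU16 and AT4G13360 nearest to LHCB4.1, AT4G20150 and VPS60.2 to LHCB4.2, AT3G12390 and XTH19 to PSAE1, and AT1G43900 and AT2G35790 to PSBW. With 4 arrays these likenesses are descriptions of the arrays.

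The pathway around the 7 genes could be followed through few further probe sets. Of 118 nuclear entries in 8 lists of photosynthesis, photorespiration, photoprotection and their regulators, 16 could be matched to a named probe set and 15 of those were tested, 8 of them outside the 7 genes. Of these 8, 0 passed the limma threshold in either fit, against 0.292% of all tested probe sets without the pair term and 2.79% with it. Without the pair term 0 had an unadjusted limma p below 0.05, where 6.14% of all tested probe sets did. With the pair term AT1G11860 (limma unadjusted p = 0.017) and AT1G56190 (0.035), both lower in the mutant, and AT1G80380 (0.043), higher, were below 0.05. In that fit AT1G80380 ranked only 1739th by p among the 14031 tested probe sets, so p-values of this size were common. In the mutant 4 of the 8 were lower and 4 higher, with a median of -0.07. Under the deposited scaling 2 were lower and 6 higher, where 13.5% of all tested probe sets were lower. LHCB4.3, the third CP29 gene, differed by -0.14 and was lower in pair B than in pair A, with differences of -0.67 in ein3 eil1 and -0.96 in wild type. PSAN, the lumenal subunit N of photosystem I, differed by 0.18 and was higher in pair B, by 0.94 in ein3 eil1 and by 0.74 in wild type. PSAN thus moved between pairs about as far as PRK did, so a shift of that size was not limited to Calvin cycle genes.

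The photosystem II subunit gene PSBY differed by -0.23, with -0.70 in pair A and 0.23 in pair B. ATPC1, for the gamma subunit of the plastid ATP synthase, differed by 0.12, with 0.05 in pair A and 0.19 in pair B. The fourth tested locus of the Calvin cycle list, AT1G56190, differed by -0.67 (limma adjusted p = 0.96), with -1.27 in pair A and -0.06 in pair B. Its pair B minus pair A difference was 1.11 in ein3 eil1 but -0.10 in wild type, unlike the shift of RCA, PRK and SBPASE in both genotypes. The other tested entries of that list are RCA, PRK and SBPASE, chosen with results known, so AT1G56190 is the only addition to them. All 4 tested entries of that list had a lower mutant mean, where 48.9% of all tested probe sets did, with a median of -0.62. Under the deposited scaling 3 of the 4 did, where 13.5% of all did. With the pair term 1 of the 4, PRK, passed, where 2.79% of all did. Among the photorespiration genes AT1G11860 differed by -0.60, HPR, which encodes the peroxisomal hydroxypyruvate reductase, by 0.01, and AT1G80380 by 0.52. HYH, a light-signalling transcription factor related to HY5, was too dim to be tested.

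Of 11 plastid-encoded photosynthesis genes on the list all 11 were tested, and 0 passed in either limma fit, where 0.292% of all passed without the pair term and 2.79% with it. In the mutant 7 were lower and 4 higher, with a median of -0.01. Under the deposited scaling 2 were lower and 9 higher, that is 18.2% lower, where 13.5% of all tested probe sets were. The gene nearest in function to RCA, rbcL for the large subunit of Rubisco, differed by -0.78 (limma adjusted p = 0.91), with -0.48 in pair A and -1.09 in pair B. The widest movements between pairs were in psbA and psbB, for core proteins of photosystem II. In pair B psbA was higher by 2.47 in ein3 eil1 and by 2.54 in wild type, and psbB by 1.66 in ein3 eil1 and by 1.88 in wild type. The genotype differences of both were small beside these, at -0.0064 for psbA and 0.18 for psbB. The photosystem I core gene psaA had the highest genotype difference of the list, 0.37, and was lower in pair B in both genotypes, with pair B minus pair A at -0.66 in each. The lowest after rbcL was atpB, a subunit gene of the ATP synthase, with -0.33 in pair A and -0.32 in pair B.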

How the data were processed

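The file holds the authors' deposited signal intensity, linear and not logged, for each probe set on each array. MAS5 is the tool named in the submitters' processing notes. Its scaling target and detection calls are not given in the sources used here, and the number of arrays limits the precision. Total RNA was biotin-labelled and hybridised to ATH1 arrays, per the labels' protocols.

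From these, log2(signal + 3) was quantile normalised. A probe set was tested if at or above the 40th percentile of its array on 2 or more arrays (14031 of 22810, with 64 controls left out). limma 3.58.1 in R 4.3.3 compared 2 arrays per genotype, and p-values were adjusted over every tested probe set. The fit was also run on simulated data with independent noise for each array and no pair effect, so that run does not bear on the pairs. Names came from the platform annotation (13513 probe sets with 1 gene, 503 with several, 8730 not listed) and from RefSeq (TAIR10.1), which matched 13436. The deviations of same-titled arrays from their genotype means correlated at 0.43 over probe sets. The labels do not say that plants were grown separately, so p-values reflect only how far these samples spread, and part of that may be technical.

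The genes and lists were chosen with earlier results of these data known. The 7 genes and EIN3 are named, as are, per list, genes past the threshold and the 2 highest and 2 lowest differences, and the 2 nearest profiles per gene. The choice of psbA came after its values were seen. As alternatives, the pseudocount, the filter, the scaling and the variance model were changed, a pair term was added and each array was left out. EIL1 is not reported here. Figures were drawn with matplotlib 3.10.9.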

Additional observations from a re-analysis of the deposited data

Results flagged for a closer look

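LHCB4.1 was the 1 gene of the 7 whose genotype difference had opposite signs in the 2 pairs, 0.31 in pair A and -0.067 in pair B. Whether these differ was not tested, since each pair holds 1 array per genotype.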

How the results depend on the processing

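Over all probe sets 41 passed, 11 higher and 30 lower. The count was 95 under the deposited scaling (59 higher, 36 lower), 68 with median centring, 14 without a filter and 391 with the pair as a replicate block, and it ran from 68 to 182 without 1 array in turn. The pair term changed the call of PRK (-0.90, limma adjusted p = 0.024) and of no other of the 7 genes. The antenna and photosystem median was 0.43 under the deposited scaling, which is 0.03 relative to all probe sets, and ran from -0.07 to 0.17 without 1 array. The Calvin cycle median ran from -1.15 to -0.0087 without 1 array, and the gap from 0.16 to 1.12. Without 1 array the differences ran from -0.11 to 0.34 for LHCB4.1, from -0.13 to 0.23 for PSAE1 and from -0.89 to 0.38 for RCA, so these signs turned. Signs also turned for PSBW (0.37) and RCA (0.073) under the deposited scaling and for PSBW (0.021) with median centring. The cause was not tested. Pseudocounts, filters and variance models changed no call and no sign among the 7 genes, and averaging probe sets changes nothing where each gene has 1. With 1 array left in a genotype, that array is assumed to vary like the others.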
